A study of Homo sapiens with 9 samples.

Results

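Polycomb proteins, the enzymes that write and remove DNA methylation, and the histone methyltransferases SETD2 and KMT2A were followed in ALL-SIL cells, an established T-cell acute lymphoblastic leukaemia (T-ALL) line, after PHF6 was knocked down. The members were the 10 genes EZH2, SUZ12, EED, KDM6A, DNMT1, DNMT3A, TET2, TET3, SETD2 and KMT2A, chosen as chromatin regulators that are recurrently altered in T-ALL, and every probe whose transcript identifier led to one of them was taken. By this rule 8 of the 10 genes were found, with 17 of the 57176 probes, out of 19721 genes matched in all. EED and TET3 matched no probe by their transcript identifiers, so no expression value of theirs was analysed here. Cells were electroporated with a control siRNA, with PHF6 siRNA1 or with PHF6 siRNA2 and, by most labels, harvested at 96 h, whereas a free-text label gives 72 h. Each group had 3 independent cultures, numbered as replicates 1 to 3, and each RNA was hybridized to its own one-colour Agilent array, so that 9 arrays were compared. Replicates 1 and 2 of all groups shared a slide, and replicate 3 of all groups was on another. All groups are of a single cell line, and the untreated state was not part of the comparison.

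Polycomb repressive complex 2 places methyl groups on lysine 27 of histone H3, a mark of silenced genes, and the demethylase KDM6A takes them off. DNA methyltransferases add methyl groups to cytosines in CG dinucleotides, and TET enzymes oxidize them, a step towards their removal. In T-ALL, loss of Polycomb repressive complex 2 components and of KDM6A is recurrent, as are DNMT3A mutations and KMT2A rearrangements, and PHF6 itself is a recurrently mutated chromatin-binding protein.

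PHF6, the targeted gene, was measured first. On the normalized log2 scale, which is used for all values here, its probe (A_23_P171385) read 11.07, 11.16 and 10.86 in control replicates 1, 2 and 3, 9.39, 9.69 and 9.13 with siRNA1, and 9.19, 9.28 and 9.14 with siRNA2. All 6 siRNA arrays lay below all 3 control arrays. Both siRNAs against control gave a log2 fold change of -1.73 (95% confidence interval -2.04 to -1.41, adjusted p = 0.00236 from limma), and it was -1.63 with siRNA1 and -1.83 with siRNA2. The samples are bulk cultures, in which fewer cells of a kind and less RNA per cell cannot be told apart. All 10 T-lineage markers were tested and well above background on all 9 arrays, among them CD3D, CD3E, CD3G, CD7, LCK, PTCRA and TLX1, the homeobox oncogene that this line expresses. Of the B-lineage markers PAX5 and CD22 were not well above background on 3 or more arrays, whereas the probe of CD79A was on all 9 and that of MS4A1 on 3. Of the erythroid markers ALAS2 and HBA2 were well above background on all 9 arrays and HBB on 0. Of the myeloid markers CD14 and ITGAM were on all 9, MPO on 7 and CSF1R on 6.

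None of the 17 member probes was dim: each passed the background threshold on all 9 arrays and was tested. A probe was called when its p, adjusted by the Benjamini-Hochberg method over all 33586 tested probes, was under 0.05. For both siRNAs against control, limma called 0 of the 17 probes, where 0.00893% of all tested probes were called, and 1 of the 17 had an unadjusted p under 0.05, against 7.39% of all tested probes. Arrays that share a replicate number departed from the means of their groups in the same direction, so the number was also fitted as a block. With this block limma called 1 of the 17, a KMT2A probe, against 2.72% of all tested probes, and 5 of the 17 had an unadjusted p under 0.05, against 21.8% of all tested probes. With 1 call the count is near that background and is no result about the members as a group. In the direction of the call, 1.87% of all tested probes were called higher. The 6 siRNA arrays lay above the 3 control arrays for 1 member probe, of KMT2A, and below them for 1, of DNMT3A, which 1.90% and 1.97% of all tested probes did. The log2 fold change was above 0 for 12 of the 17 probes, 4 of them of KMT2A, and below 0 for 5, where 50.4% of all tested probes were above 0. Its median was 0.066 over the member probes and 0.002 over all tested probes. With 75th percentile scaling the member median was 0.029, on normexp values it was 0.075 and on the deposited log2 values 0.036.

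**Figure D1:**
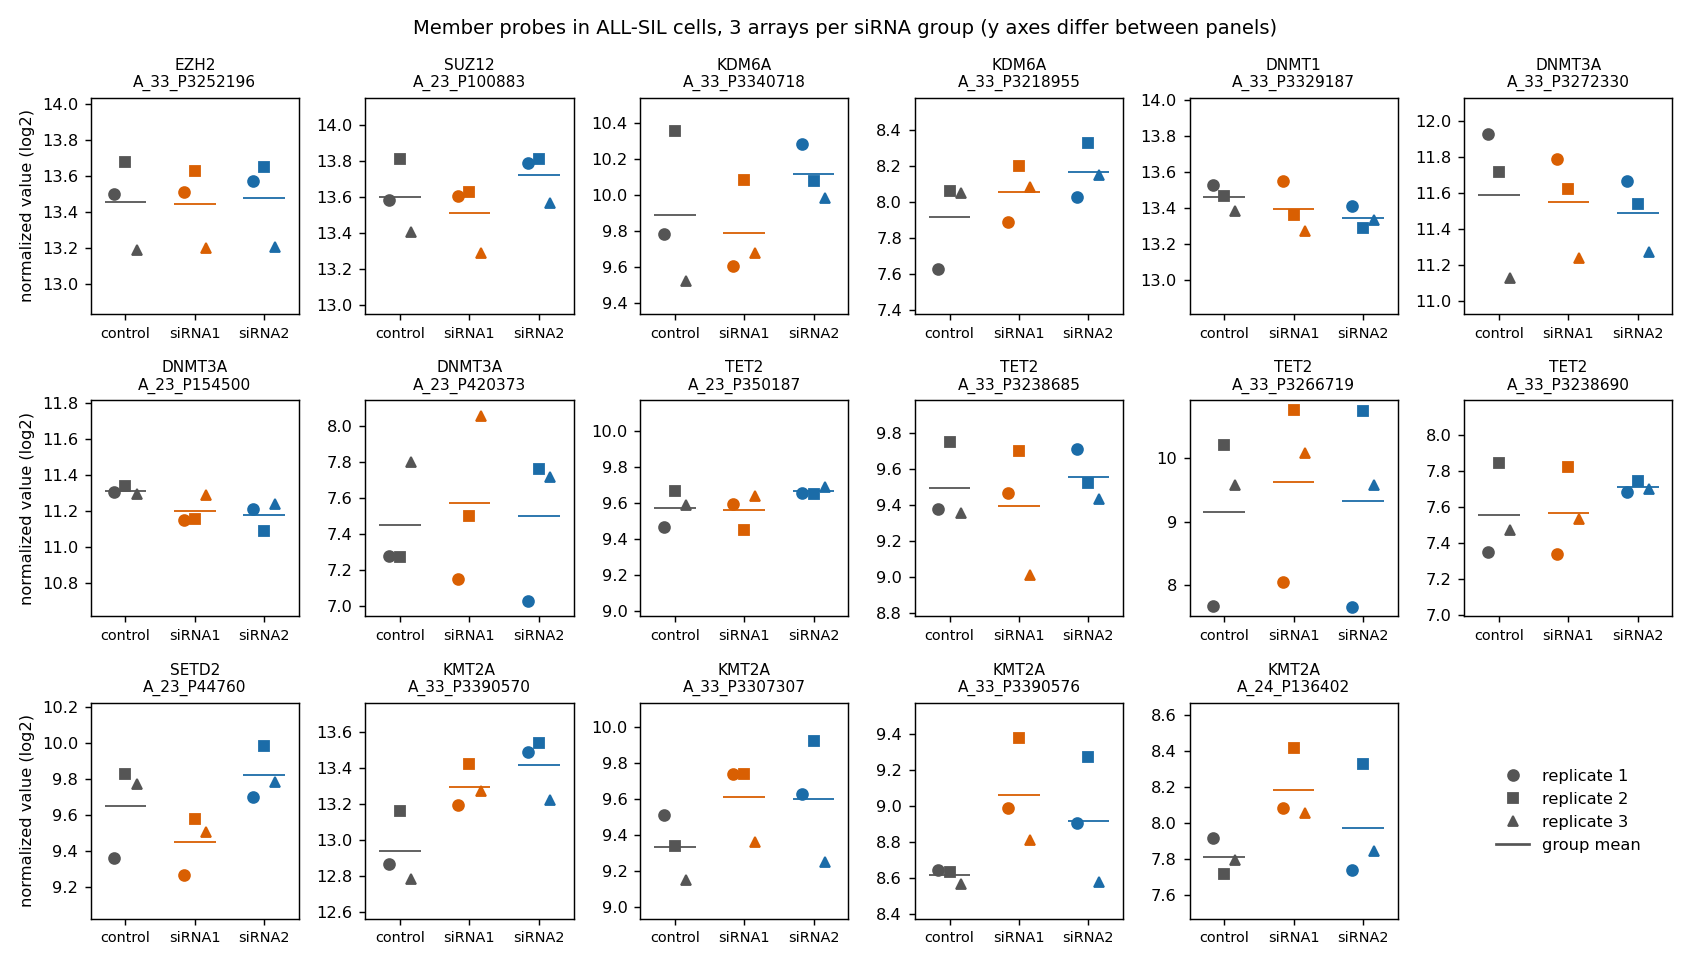
Normalized log2 value of each of the 17 member probes (vertical axis, its own scale in each panel) on the 3 control, 3 siRNA1 and 3 siRNA2 arrays, with replicates 1, 2 and 3 as circle, square and triangle and the group mean as a line. Only in the panel of KMT2A probe A_33_P3390570 do all 6 siRNA arrays lie above the 3 control arrays, and in the panel of DNMT3A probe A_23_P154500 all 6 lie below.

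EZH2 is the methyltransferase of Polycomb repressive complex 2. Its probe (A_33_P3252196) read 13.50, 13.68 and 13.19 in control replicates 1, 2 and 3, 13.51, 13.63 and 13.20 with siRNA1, and 13.57, 13.65 and 13.20 with siRNA2. Each siRNA array stood within 0.075 of the control of its own number, and replicate 3 was the lowest in every group. Its log2 fold change was 0.005 (95% confidence interval -0.35 to 0.36, adjusted p = 0.997 from limma), and with the block the interval was -0.17 to 0.18. SUZ12, the subunit that holds the complex together and is needed for its activity, was measured by 1 probe (A_23_P100883) spotted 5 times on each array. Its values were 13.59, 13.81 and 13.41 with control siRNA, 13.61, 13.63 and 13.29 with siRNA1, and 13.79, 13.81 and 13.57 with siRNA2, so the groups overlapped. The SUZ12 log2 fold change of 0.015 had a 95% confidence interval of -0.29 to 0.32 (adjusted p = 0.990 from limma). With the block this interval was -0.17 to 0.20.

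KDM6A, the X-linked demethylase that opposes EZH2, had 2 probes. The first (A_33_P3340718) read 9.78, 10.35 and 9.52 in the controls, 9.60, 10.08 and 9.68 with siRNA1, and 10.28, 10.08 and 9.98 with siRNA2. It was above its own control in 3 and below in 3 of the 6 siRNA arrays, and its log2 fold change was 0.066 with a 95% confidence interval of -0.35 to 0.48 (adjusted p = 0.960 from limma). The second (A_33_P3218955) read 7.63, 8.06 and 8.05 in the controls, 7.89, 8.20 and 8.08 with siRNA1, and 8.03, 8.33 and 8.15 with siRNA2. In 6 of 6 siRNA arrays it was above its own control. Its log2 fold change was 0.20, and it was not called by group (adjusted p = 0.794 from limma) or with the block. Without control replicate 1 it was at 0.056 in a fit that did not pair the arrays, and in the blocked alternatives it ran from 0.133 to 0.265. The probes carry the same transcript identifier, and their correlation over the 9 arrays was 0.37.

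DNMT1 copies methylation onto the new DNA strand after replication. Its probe (A_33_P3329187) read 13.53, 13.47 and 13.39 in the controls, 13.55, 13.36 and 13.28 with siRNA1, and 13.41, 13.29 and 13.34 with siRNA2. Values were below the control of the same number in 5 of 6 siRNA arrays, with overlap between the groups. DNMT1 had a log2 fold change of -0.09 (95% confidence interval -0.335 to 0.155, adjusted p = 0.895 from limma). DNMT3A, which methylates DNA de novo, had 3 probes, with log2 fold changes of -0.072, -0.12 and 0.087 and adjusted p from limma of 0.957, 0.836 and 0.957. The middle one of these (A_23_P154500) read 11.30, 11.34 and 11.29 in the controls, 11.15, 11.16 and 11.29 with siRNA1, and 11.21, 11.09 and 11.24 with siRNA2. All 6 siRNA arrays were below the 3 controls, but siRNA1 replicate 3 differed from its own control by -0.004 only, and the probe was not called with the block either.

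The other DNMT3A probes varied with the replicate number. A_33_P3272330 read 11.93, 11.72 and 11.13 in control replicates 1, 2 and 3, 11.79, 11.62 and 11.24 with siRNA1, and 11.67, 11.54 and 11.27 with siRNA2, so replicate 3 was lowest in all groups. A_23_P420373, whose transcript identifier is a different one, read 7.28, 7.27 and 7.80 in the controls, 7.15, 7.50 and 8.06 with siRNA1, and 7.03, 7.76 and 7.72 with siRNA2. Replicate 3 was above replicate 1 in every group for this probe and below it in every group for the former. Over the 9 arrays the correlation between them was -0.82, a description of arrays that share 3 replicate numbers.

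TET2, which oxidizes methylated cytosine, had 4 probes. One of them (A_33_P3266719) differed between replicates more than any other member probe. It read 7.66, 10.21 and 9.58 in control replicates 1, 2 and 3, 8.04, 10.76 and 10.09 with siRNA1, and 7.66, 10.75 and 9.58 with siRNA2. Replicate 1 was lowest and replicate 2 highest in every group, and the range over the 9 arrays was 3.11, a range that 51 of 33509 tested probes (0.152%) reached. The other TET2 probes carry a different transcript identifier and ranged over 0.24, 0.74 and 0.50. The log2 fold change of A_33_P3266719 was 0.33, with a standard error of 0.77 in the fit by group (adjusted p = 0.950 from limma) and of 0.11 with the block (adjusted p = 0.122 from limma). No alternative called it, with adjusted p of 0.0900 to 0.999 from limma. With siRNA1 it was above its own control by 0.38, 0.55 and 0.51, and with siRNA2 the differences were -0.001, 0.54 and -0.003. The test between siRNA2 and siRNA1 gave a log2 difference of -0.30 (adjusted p = 1 from limma). The remaining TET2 probes had log2 fold changes of 0.04, -0.021 and 0.083, and the largest of their standard errors was 0.17.

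**Figure D2:**
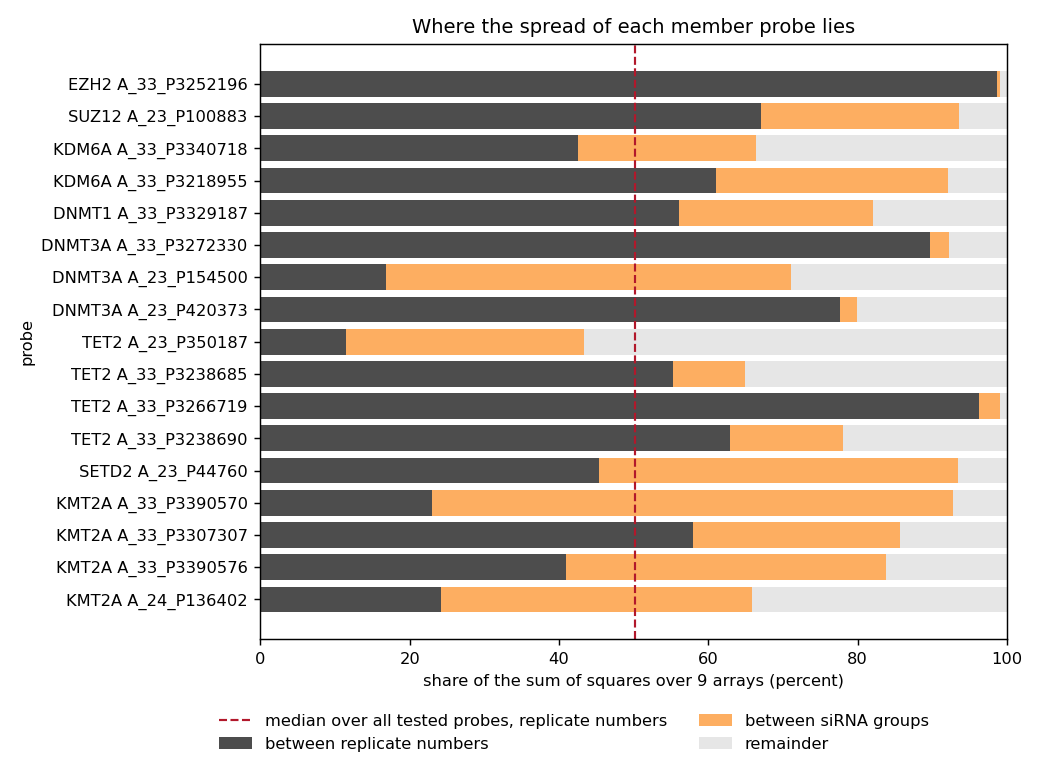
Share of each member probe's sum of squares over the 9 arrays (horizontal axis, percent) that lies between replicate numbers, between siRNA groups and in the remainder. The share between replicate numbers was 98.7% for EZH2 and 96.3% for TET2 probe A_33_P3266719, and the dashed line marks its median over all tested probes, 50.2%.

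The spread of each probe over the 9 arrays was divided, as a description with no test, into the part between replicate numbers and the part between siRNA groups. Over the 17 member probes the median share was 56.1% between replicate numbers and 26.5% between groups. Over all tested probes the medians were 50.2% and 19.9%. Replicate number held 98.7% of the spread of EZH2, 96.3% of that of TET2 probe A_33_P3266719 and 89.7% of that of DNMT3A probe A_33_P3272330, with 0.436%, 2.79% and 2.54% between the groups. For KMT2A probe A_33_P3390570 the order was the opposite, with 23.0% between replicate numbers and 69.8% between groups. Since replicate 3 was also on a slide of its own, slide and culture cannot be told apart for that replicate.

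SETD2 places the methyl groups on lysine 36 of histone H3 that mark transcribed gene bodies. Its probe (A_23_P44760) read 9.36, 9.82 and 9.77 in the controls, 9.26, 9.58 and 9.50 with siRNA1, and 9.70, 9.98 and 9.78 with siRNA2. Every siRNA1 array was below its own control, with differences of -0.094, -0.245 and -0.265, and every siRNA2 array was above it, with differences of 0.34, 0.16 and 0.014. The log2 fold change was -0.20 with siRNA1 and 0.17 with siRNA2, which share their controls, and -0.015 for both together (adjusted p = 0.990 from limma). Between siRNA2 and siRNA1 it was 0.37 (95% confidence interval 0.010 to 0.735), with an adjusted p of 1 from limma, and 0.252 to 1 over the alternatives. Between the siRNAs limma called 0 of the 17 member probes, 1 of which, that of SETD2, had an unadjusted p under 0.05, and 0% of all tested probes. With the block it again called 0 of the 17, with 2 at an unadjusted p under 0.05, and 0.0387% of all tested probes. Of all tested probes 2.49% and, with the block, 9.64% were under 0.05 unadjusted.

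KMT2A, also known as MLL, methylates lysine 4 of histone H3 at active promoters and keeps HOX genes expressed. Its promoter window in RefSeq, 250 bases before to 50 after the transcription start on build GRCh38.p14, is shown with every CG dinucleotide in capitals, because CG is the letter pair that DNMT and TET enzymes act on and that KMT2A binds when it is unmethylated. The windows of TET2 are shown beside it, because 2 starts of this gene differ in CG content.
KMT2A, chr11:118436242-118436541, plus strand: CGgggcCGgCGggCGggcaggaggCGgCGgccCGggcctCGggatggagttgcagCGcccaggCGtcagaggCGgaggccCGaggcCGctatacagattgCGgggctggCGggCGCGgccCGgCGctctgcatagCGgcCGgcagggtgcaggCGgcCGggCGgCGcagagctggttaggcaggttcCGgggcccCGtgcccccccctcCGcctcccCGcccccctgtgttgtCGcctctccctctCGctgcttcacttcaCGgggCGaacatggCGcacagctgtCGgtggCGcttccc
TET2, first start, chr4:105145625-105145924, plus strand: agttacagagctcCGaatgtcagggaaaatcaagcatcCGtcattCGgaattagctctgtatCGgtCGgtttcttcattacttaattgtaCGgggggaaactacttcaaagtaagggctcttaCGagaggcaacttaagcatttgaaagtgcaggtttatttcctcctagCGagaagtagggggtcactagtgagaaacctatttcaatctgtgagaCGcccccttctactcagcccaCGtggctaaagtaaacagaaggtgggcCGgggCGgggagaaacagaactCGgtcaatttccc
TET2, second start, chr4:105146626-105146925, plus strand: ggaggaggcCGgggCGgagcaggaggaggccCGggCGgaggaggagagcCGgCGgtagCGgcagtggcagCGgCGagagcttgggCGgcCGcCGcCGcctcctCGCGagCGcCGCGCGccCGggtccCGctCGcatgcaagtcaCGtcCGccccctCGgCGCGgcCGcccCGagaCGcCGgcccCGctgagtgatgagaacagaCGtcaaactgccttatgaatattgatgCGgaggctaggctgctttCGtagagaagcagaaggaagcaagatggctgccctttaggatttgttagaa
The KMT2A window holds 36 CG dinucleotides, a number that 12.7% of all 35116 promoter windows reach. The TET2 windows hold 13 and 35, reached by 51.7% and 14.1% of all windows. A CG occurs in 96.0% of all windows, with a median of 14, and CG reads the same on both strands. All 10 members had a window, 18 windows in all with a median of 29.5, and 1 of the 18 was at or below the median of all windows. DNA methylation was not measured on these arrays, and which start an array probe reports was not tested.

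All 4 KMT2A probes had log2 fold changes above 0 with both siRNAs together. Probe A_33_P3390570 read 12.87, 13.16 and 12.79 in control replicates 1, 2 and 3, 13.20, 13.42 and 13.27 with siRNA1, and 13.49, 13.54 and 13.22 with siRNA2. The 6 siRNA arrays lay above all 3 controls, and each was above its own control, by 0.26 at least and 0.62 at most. The log2 fold change was 0.42 (95% confidence interval 0.13 to 0.71), a fold of 1.34, and did not pass in the fit by group (adjusted p = 0.648 from limma). In the blocked fit the interval was 0.22 to 0.62 and the adjusted p was 0.0425 from limma. The probe was thus called higher there and not without the block, at the same log2 fold change. Over all alternatives its adjusted p ran from 0.00949 to 0.999 from limma. The upper end came from the unpaired fit without control replicate 1, where the log2 fold change was 0.38. With the replicate block the adjusted p was 0.286 at most. The call did not hold with the slide as the block (adjusted p = 0.146 from limma). Nor did the blocked call hold without the arrays of replicate 1, 2 or 3, with adjusted p of 0.286, 0.124 and 0.125 from limma. The log2 fold change was 0.42 with the slide block, and 0.39, 0.47 and 0.40 without replicate 1, 2 and 3.

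For either siRNA alone, against the controls they share, limma called 0 of the 17 member probes. By group 0.00893% of all tested probes were called with siRNA1 and 0.0119% with siRNA2, and 2 and 1 member probes had an unadjusted p under 0.05, against 5.91% and 5.90% of all tested probes. With the block 0.938% and 1.60% of all tested probes were called, and 5 and 4 member probes had an unadjusted p under 0.05, against 19.2% and 19.5% of all. KMT2A probe A_33_P3390570 was at 0.36 with siRNA1 and at 0.48 with siRNA2, with blocked adjusted p of 0.116 and 0.0553 from limma. Over the alternatives these ran from 0.0326 and 0.0175 up to 1.00, under 0.05 only with the block on normexp values and, for siRNA2, on the deposited table. The difference between the siRNAs was 0.12 (adjusted p = 1 from limma). The other KMT2A probes, A_33_P3307307, A_33_P3390576 and A_24_P136402, had log2 fold changes of 0.27, 0.37 and 0.27, with adjusted p of 0.760, 0.680 and 0.744 from limma, and none was called under any alternative. Of the 6 siRNA arrays all were above their own control for the first and second, and 5 for the last, where siRNA2 replicate 1 was at -0.18. For these 3 probes both replicate 2 differences were larger than those of replicates 1 and 3 with the same siRNA, and for A_33_P3390570 they were the smallest. Without replicate 2 the 3 probes were at 0.163, 0.215 and 0.075. The 4 probes measure 1 gene and are not replicates of the treatment. Averaged over all 4, chosen after seeing the data, KMT2A was at 0.33 and not called by group (adjusted p = 0.659 from limma) or with the block (0.0808).

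**Figure D3:**
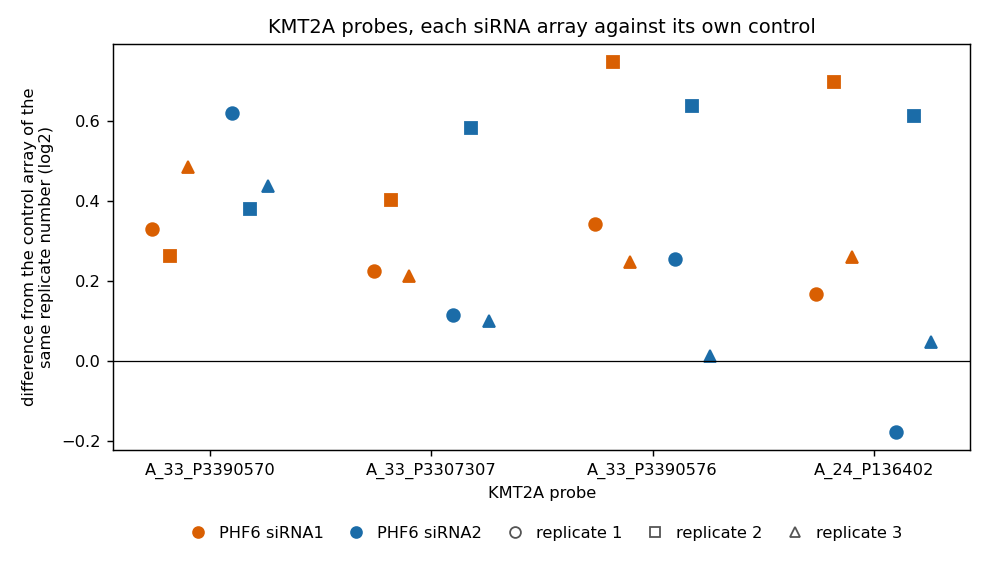
Difference of each siRNA array from the control with its replicate number (vertical axis, log2) for the 4 KMT2A probes, siRNA1 in orange and siRNA2 in blue, with replicates 1, 2 and 3 as circle, square and triangle. A single point lies below 0, siRNA2 replicate 1 of A_24_P136402 at -0.18.

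**Figure D4:**
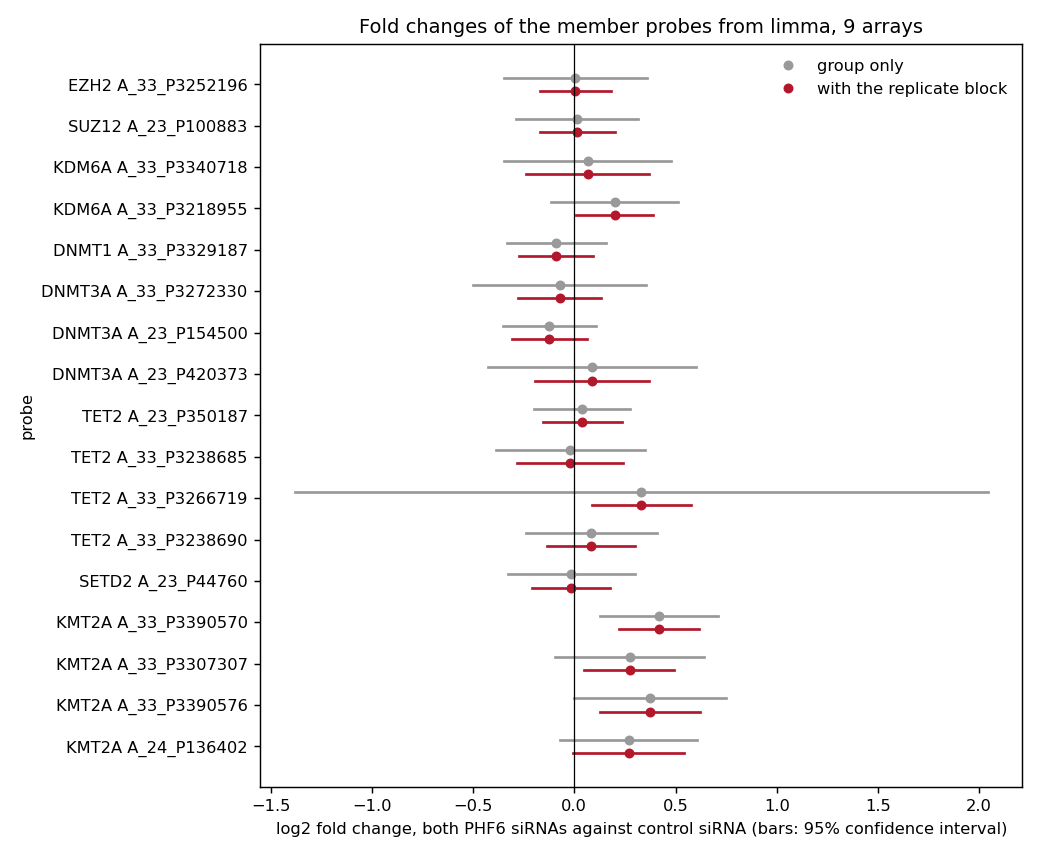
Log2 fold change of both PHF6 siRNAs against control siRNA (horizontal axis) with its 95% confidence interval from limma for the 17 member probes, by group in grey and with the replicate block in red. The block narrowed the standard error of TET2 probe A_33_P3266719 from 0.77 to 0.11, and the KMT2A probes have the highest estimates outside that probe.

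For each member, the gene whose brightest probe ran most alike over the 9 arrays was looked up, which describes arrays that share siRNA groups and replicate numbers. Pearson's r was 0.981 between EZH2 and SMIM3, 0.975 between SUZ12 and SENP7, 0.985 between KDM6A and DOP1A, and 0.968 between DNMT1 and RGS9BP. It was 0.985 between DNMT3A and EIF1, 0.931 between TET2 and PIK3CB, 0.932 between SETD2 and TM2D1, and 0.954 between KMT2A and PURB. Each is the highest value over all other tested genes, and none of these partners was another member. No such highest value was taken for genes outside the members, so whether these r are unusual was not tested.

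The complexes around the members were read from wider gene lists, with the brightest probe for each gene. Over the lists of chromatin and DNA methylation regulators 89 of 94 genes were tested, 40 above and 49 below 0. Their median log2 fold change was -0.032, where the median over all 14679 genes was -0.033. Limma called 0 of the 89 genes, 3 of which had an unadjusted p under 0.05 against 6.21% of all genes, where 0.00681% of all genes were called, and with the block it called 1, KMT2A, where 2.34% of all genes were called. With the block 15 of the 89 (16.9%) had an unadjusted p under 0.05, against 19.1% of all genes. These shares of all genes, 6.21% and 19.1% unadjusted and 0.00681% and 2.34% called, are the background for each list below.

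Of the Polycomb repressive complex 2 list 12 of 13 genes were tested, 7 above and 5 below 0, with a median of 0.01. Limma called 0 of them, and 0 without and 2 with the block had an unadjusted p under 0.05. These were PHF1 and MTF2, accessory subunits that help bring the complex to chromatin, at 0.28 and 0.24, both above the control of the same number in all 6 siRNA arrays (adjusted p = 0.793 and 0.752 from limma). Without control replicate 3 PHF1 was at 0.072, and without control replicate 1 MTF2 was at 0.109, in fits that did not pair the arrays. In the blocked alternatives PHF1 ran from 0.244 to 0.304 and MTF2 from 0.174 to 0.302. Both passed only with the block on normexp values, and over the alternatives their adjusted p ran from 0.0439 and 0.0362 up to 0.999. With the replicate block these were 0.414 and 0.600 at most from limma. All 23 Polycomb repressive complex 1 genes were tested, 10 above and 13 below 0, with a median of -0.027. Limma called 0, while 1 had an unadjusted p under 0.05 and 4 with the block. PHC3, a polyhomeotic subunit, was at 0.34 and PCGF3, a RING finger subunit, at -0.29 (adjusted p = 0.702 and 0.675 from limma). PHC3 too passed with the block on normexp values only, with adjusted p of 0.0241 to 0.999 over the alternatives. With the replicate block its adjusted p was 0.403 at most from limma.

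The histone H2A deubiquitinase list had 5 of 5 genes tested, with a median of -0.032. Limma called 0, and 0 had an unadjusted p under 0.05 with or without the block. BAP1, its catalytic subunit, was at -0.13 and ASXL1 at 0.075. KDM6B, the second H3 lysine 27 demethylase, was at -0.10 (adjusted p = 0.952 from limma).

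Of 7 DNA methyltransferase genes and partners 6 were tested, 2 above and 4 below 0, with a median of -0.081. Limma called 0, and 0 without and 2 with the block had an unadjusted p under 0.05. These were HELLS, a chromatin remodeller needed for DNA methylation, at 0.21, and UHRF2 at 0.25 (adjusted p = 0.871 and 0.842 from limma). Without control replicate 3 HELLS was at 0.01, and without control replicate 1 UHRF2 was at 0.063, in fits that did not pair the arrays. Against their own controls HELLS was above in 6 of 6 and UHRF2 in 5 of 6 arrays. In the blocked alternatives they ran from 0.188 to 0.267 and from 0.191 to 0.344. HELLS passed with the block on normexp values only, with adjusted p of 0.0393 to 0.999 over the alternatives. With the replicate block its adjusted p was 0.587 at most from limma. DNMT3L was not well above background on any array. Among 5 tested genes of the TET oxidation list, with a median of -0.037, IDH1 was at -0.088 and IDH2 at -0.041. The 6 tested readers of methylated CG were all below 0 with both siRNAs, where 58.3% of all genes were, from -0.14 to -0.032 with a median of -0.096. All 6 were below 0 with siRNA1 and 3 of the 6 with siRNA2, and ZBTB4 and MBD2 were below their own control in 6 of 6 arrays (-0.14 and -0.14). In these last lists limma called 0, and 0 had an unadjusted p under 0.05 with or without the block.

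Of 16 genes of the KMT2 complexes 15 were tested, 9 above and 6 below 0, with a median of 0.008. Limma called 0 without the block and 1, KMT2A, with it, where 0.00681% and 2.34% of all genes were called. Without and with the block 1 (6.67%) and 5 (33.3%) had an unadjusted p under 0.05, against 6.21% and 19.1% of all genes. The difference from these shares was not tested. Other genes of this list were picked once their values were known. KMT2C was at 0.24, KMT2D at 0.20 and KMT2B at 0.19 (adjusted p = 0.725, 0.808 and 0.819 from limma). Replicate 2 held most of the KMT2B value, with mean differences of 0.053, 0.43 and 0.08 in replicates 1, 2 and 3. Those of KMT2D were 0.23, 0.165 and 0.21. Without pairing the KMT2D value leaned on control replicate 3, at 10.57 against 10.95 and 10.91. SETD1A, another H3 lysine 4 methyltransferase, and PAGR1, a subunit, were below 0 at -0.205 and -0.21 (adjusted p = 0.775 and 0.755 from limma). Each was below its own control in 6 of 6 arrays. Control replicate 1 of SETD1A read 13.04, against 12.73 and 12.60 in replicates 2 and 3, and held much of its value. Mean differences of SETD1A were -0.35, -0.105 and -0.16 in replicates 1, 2 and 3. KMT2C passed under 1 alternative, the block on normexp values (adjusted p = 0.0267 from limma), and the other 4 under none. The shared core subunits WDR5, RBBP5, ASH2L and DPY30 were at 0.008, 0.052, -0.17 and -0.088, and none was called. For ASH2L the controls of replicates 1, 2 and 3 read 12.56, 12.14 and 11.93. Its siRNA means, 12.12 and 11.96, lay between the last 2, so without pairing its value rested on control replicate 1. ASH2L was below its own control in 5 of 6 arrays. Mean differences of WDR5 were 0.007, -0.149 and 0.167 in replicates 1, 2 and 3. Of the 8 genes of KMT2A fusion partners and elongation factors, 4 above and 4 below 0, limma called 0, while 0 had an unadjusted p under 0.05 and 1 with the block, MLLT1 at -0.20, and MLLT3 was at -0.14. Among 7 genes of H3 lysine 36 methylation, 3 above and 4 below 0, limma called 0, while 1 had an unadjusted p under 0.05 with and without the block, SETMAR at -0.28, and NSD1 was at -0.13.

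**Figure D5:**
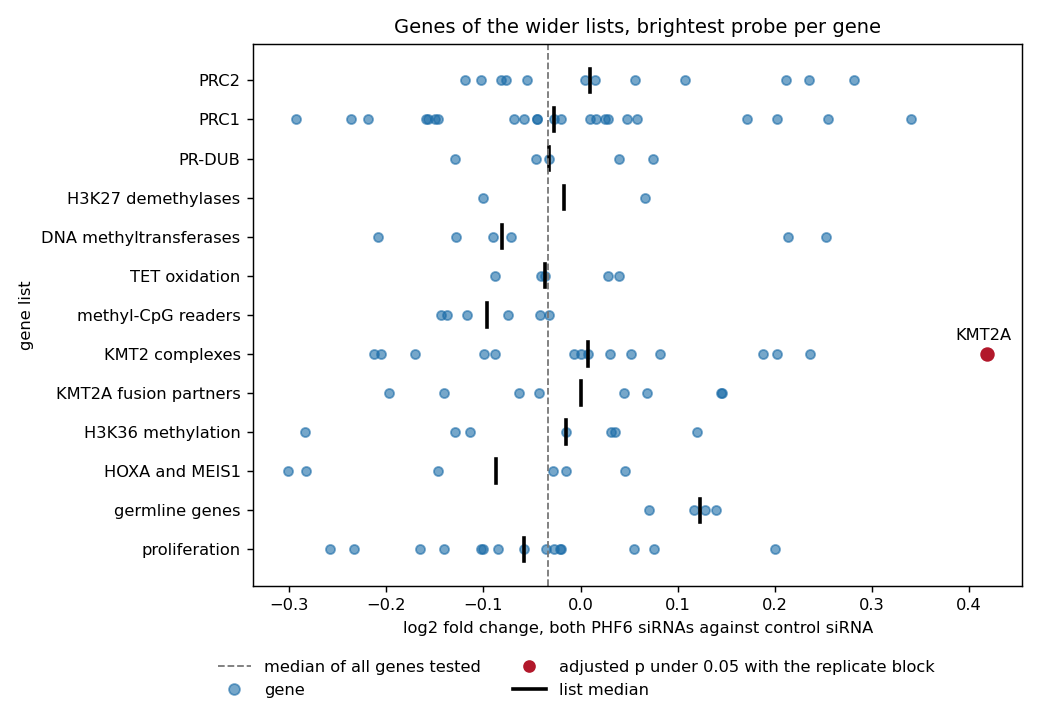
Log2 fold change of both PHF6 siRNAs against control siRNA (horizontal axis) for the tested genes of each wider list other than the cell type markers, with the list median as a black bar and the median of all genes tested, -0.033, as a dashed line. KMT2A, at 0.42, is the single gene shown that was called with the replicate block.

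Genes that KMT2A and DNA methylation are known to govern were listed as well. Of 10 HOXA, MEIS1 and PBX3 genes 6 were tested, 1 above and 5 below 0, with a median of -0.087. Limma called 0, while 0 had an unadjusted p under 0.05 and 1 with the block, HOXA9. HOXA9 was at -0.30 and HOXA10 at -0.28, each below its own control in 4 of 6 arrays (adjusted p = 0.725 and 0.767 from limma). Averaged over the siRNAs, replicate 1 held most of both. Mean differences in replicates 1, 2 and 3 were -0.69, -0.013 and -0.20 for HOXA9 and -0.70, -0.075 and -0.078 for HOXA10. Without replicate 1 the 2 genes were at -0.11 and -0.077. HOXA10 differed from its own control by -0.58, -0.36 and -0.40 with siRNA1, and by -0.81, 0.21 and 0.24 with siRNA2. The log2 fold changes with siRNA1 and siRNA2 were -0.11 and -0.49 for HOXA9 and -0.45 and -0.12 for HOXA10. MEIS1 was not well above background on any array. Of 14 germline genes that DNA methylation silences in somatic cells 4 were tested, all above 0 with both siRNAs, 3 with siRNA1 and 4 with siRNA2, with a median of 0.12. Limma called 0, and 0 had an unadjusted p under 0.05 with or without the block. DAZL, MAGEA1, MAGEA4 and STK31 were not well above background on any array. Among the tested ones SYCP3 was at 0.14 and TEX101 at 0.12. Without control replicate 3 SYCP3 was at 0.022, in a fit that did not pair the arrays. In the blocked alternatives SYCP3 ran from 0.025 to 0.301. Of 15 proliferation genes, 3 above and 12 below 0 with a median of -0.058, limma called 0, while 0 had an unadjusted p under 0.05 and 2 with the block, MCM6 at -0.26 and MCM2 at -0.23. MCM6 was at -0.108 without replicate 2, and MCM2 at -0.11 without control replicate 1 in a fit that did not pair the arrays. In the blocked alternatives MCM2 ran from -0.33 to -0.135.

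The T-lineage markers had 2 genes above and 8 below 0, with a median of -0.12. PTCRA, the invariant chain of the pre-T cell receptor, and CD7 were called lower with the block. Their log2 fold changes were -0.73 and -0.75 (adjusted p = 0.00856 and 0.0131 from limma), and neither passed without the block (adjusted p = 0.648 and 0.573 from limma). Neither call held with the slide as the block (adjusted p = 0.0567 and 0.111 from limma), without replicate 1 (0.0631 and 0.0658) or without replicate 2 (0.102 and 0.106). The log2 fold changes stayed about as large there. They were -0.73 and -0.75 with the slide block, -0.78 and -0.85 without replicate 1, and -0.66 and -0.79 without replicate 2. Over the alternatives the adjusted p ran from 0.00451 and 0.0121 up to 0.999 from limma. The upper end came from the unpaired fit without control replicate 1, and with the replicate block they were 0.102 and 0.106 at most. Of the 10 T-lineage genes 2 by group and 4 with the block had an unadjusted p under 0.05, against 6.21% and 19.1% of all genes. CD3E was at -0.33, and TLX1 was at -0.17 with all 6 siRNA arrays below all 3 controls (adjusted p = 0.726 and 0.764 from limma). Of all tested probes 1.97% had all 6 siRNA arrays below the controls. CD1A was at 0.71 and above its own control in 5 of 6 arrays, and was not called by group (adjusted p = 0.794 from limma). Its controls read 9.42, 11.25 and 10.79 in replicates 1, 2 and 3, against siRNA means of 11.19 and 11.21. Without pairing, control replicate 1 thus held much of the CD1A value. Its mean differences from the own control were 0.81, 0.14 and 1.19 in replicates 1, 2 and 3. These last 3 genes, named after their values were seen, were called under no alternative. Of the other lineages the B-lineage markers CD79A and MS4A1 were at -0.32 and 0.092. CD79A ran from -0.46 to -0.208 over the alternatives. The sign of MS4A1 varied, with mean differences of 0.35, 0.072 and -0.15 in replicates 1, 2 and 3. The erythroid markers ALAS2 and HBA2 were at 0.17 and -0.13, and the myeloid markers CD14 and ITGAM were at -0.12 and -0.048. Limma called 0 of the genes in the B-lineage, erythroid and myeloid lists with or without the block. By group 1 of 2 tested B-lineage, 0 of 2 erythroid and 0 of 4 myeloid genes had an unadjusted p under 0.05.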

How the data were processed

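For each of 9 arrays the authors deposited the spot intensity read with Agilent Feature Extraction (version 10.5.1.1 per the file headers, 9.1 in the submitters' processing notes), and deposited flags with a score of 0 or 1 for each spot. They also deposited a table of log2 values normalized with VSN. Here the VSN model, coded anew because the package was not installed, was fitted to the median intensity with 7 iterations at a trimming quantile of 0.9. Outlier spots were left out, and repeated spots were averaged. Saturation was met on 0 spots. The test took the 33586 of 57176 probes that 3 or more arrays showed well above background (29662 to 33736 per array). Symbols came from transcript identifiers matched to the RefSeq table of GRCh38.p14, which 25728 probes did.

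The fits used all 9 arrays, limma 3.58.1 and R 4.3.3. The replicate numbers come from the labels. Deviations from group means correlated at 0.31 to 0.75 in the 9 pairs with the same number, and at -0.57 to 0.13 in the 18 others. The number of arrays limits the precision. Named list genes were those past the threshold with or without the block. Lists without such a gene gave up to 2 genes with the smallest blocked p. These came from genes well above background on all 9 arrays, so the germline gene TDRD1, at 7 arrays, was left out. The members and lists were chosen with earlier results of these data known. The B-lineage and erythroid lists hold only some of the markers first listed. Other normalizations (75th percentile scaling, normexp with quantile normalization, the deposited table), background filters, blocks and left-out arrays were the alternatives. The mean over a gene's probes, the shares of spread and the CG search were chosen after seeing the data. The code was tested on simulated data.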

Additional observations from a re-analysis of the deposited data

Results flagged for a closer look

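SETD2 (A_23_P44760) had differences of opposite sign with the PHF6 siRNAs, neither of them called. Every siRNA1 array was below and every siRNA2 array above the control of its own number. The log2 difference between siRNA2 and siRNA1 was 0.37, and limma did not call it over all tested probes (adjusted p = 1, and 0.338 with the replicate block). Its cause was not tested. Groups of 3 arrays are too small for a check of single outlying arrays.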

How the results depend on the processing

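When replicate number was fitted as a block, the number of called probes went from 3 to 915 for both siRNAs against control, from 3 to 315 for siRNA1, from 4 to 539 for siRNA2 and from 0 to 13 between the siRNAs, the called member probes from 0 to 1 and the called list genes from 0 to 3. The 915 were 628 higher and 287 lower. With 75th percentile scaling the counts were 6 for both siRNAs and 6 for siRNA1, and with normexp and quantile normalization 5 for both. Of the calls for both siRNAs 0 were higher and 3 lower, with 75th percentile scaling 3 and 3, and with normexp 1 and 4. With the slide as a block the counts were 17, 11, 11 and 6, and with probes well above background on all arrays 6 for siRNA1 and 4 between the siRNAs. On only the arrays of the groups compared siRNA1 gave 0. Leaving out each array in turn, without pairing, gave 2 to 3, 0 to 7, 0 to 4 and 0 to 11. The block with 75th percentile scaling gave 297, 38 and 54 for the siRNAs against control and 2 list genes. With normexp and quantile normalization it gave 1284, 462, 910 and 9, with 1 member probe and 8 list genes, and on the deposited log2 values it gave 868, 268, 484 and 10, with 1 member probe and 3 list genes. The blocked counts were 39, 33, 13 and 4 without the arrays of replicate 1, 5, 9, 3 and 0 without replicate 2, and 686, 137, 344 and 25 without replicate 3, the last with 2 list genes. No member probe was called in these 3 fits. For both siRNAs together PHF6 kept its direction and its call in all settings, from -1.81 to -1.61. It was not called where the count for 1 siRNA was 0. KMT2A probe A_33_P3390570 kept its direction, from 0.34 to 0.53, with an adjusted p of 0.00949 to 0.999 from limma, and of 0.286 at most with the replicate block. Beside KMT2A, PTCRA and CD7, the block changed no other call among the named genes. For KMT2A this p was 0.0783 with the block and 75th percentile scaling, and 0.00949 and 0.037 with the block on normexp and on the deposited table. On normexp values the block also called PHC3, PHF1, MTF2, HELLS and KMT2C. The cause of these moves was not tested.

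Differences that changed sign were not called in any setting. They are listed for the member probes and for the genes taken by the naming rule. With 75th percentile scaling, with or without the block, SUZ12 was at -0.005 and SETD2 at 0.025. With normexp SETD2 was at 0.002, TEX101 at -0.022 and IDH2 at 0.047, and in the deposited table EZH2 was at -0.002. In the blocked fits without replicate 1 EZH2 was at -0.013, SUZ12 at -0.033 and TET2 probe A_23_P350187 at -0.022. Without replicate 2 DNMT3A probe A_23_P420373 was at -0.05, TET2 probe A_33_P3238685 at 0.04 and HBA2 at 0.246. Without replicate 3 KDM6A probe A_33_P3340718 was at -0.055, TET2 probe A_33_P3238685 at 0.036, SETD2 at 0.04, TEX101 at -0.032, ASXL1 at -0.009 and KDM6B at 0.168. The fits that left out each array in turn did not pair the arrays, so a shift between replicate numbers could enter these values. In them EZH2 ranged from -0.128 to 0.117, SUZ12 from -0.082 to 0.12, and KDM6A probe A_33_P3340718 from -0.116 to 0.30. DNMT3A probes A_33_P3272330 and A_23_P420373 ranged from -0.304 to 0.096 and -0.035 to 0.261, and SETD2 from -0.161 to 0.071. In the alternatives with the replicate block these probes ran, in the same order, from -0.013 to 0.075, -0.033 to 0.091, -0.055 to 0.235, -0.171 to -0.007, -0.05 to 0.223 and -0.085 to 0.04. In the unpaired fits the TET2 probes A_23_P350187, A_33_P3238685, A_33_P3266719 and A_33_P3238690 ranged from -0.015 to 0.087, -0.097 to 0.108, -0.414 to 0.862 and -0.021 to 0.227. With the replicate block the TET2 probes ran, in this order, from -0.022 to 0.119, -0.137 to 0.04, 0.223 to 0.401 and 0.006 to 0.154. A_33_P3266719 thus changed sign only where the arrays were not paired. Without pairing, HBA2 ranged from -0.358 to 0.20, ITGAM from -0.10 to 0.032 and ASXL1 from -0.051 to 0.213 when each array was left out. KDM6B likewise ranged from -0.224 to 0.065, MLLT3 from -0.273 to 0.016 and IDH2 from -0.079 to 0.006. Among the values that kept their sign but moved over 1.5 times were DNMT1 from -0.129 to -0.019, DNMT3A probe A_23_P154500 from -0.17 to -0.076, BAP1 from -0.26 to -0.057, IDH1 from -0.162 to -0.019, NSD1 from -0.184 to -0.051, CD14 from -0.218 to -0.01 and ALAS2 from 0.025 to 0.342.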
